A study of Mus musculus with 12 samples.

Results

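The families described here are the extracellular metalloproteases of the Mmp, Adam and Adamts groups, the Adamts-like proteins and the Timp inhibitors, measured in mouse lung fibroblasts with and without lung metastasis. Members were taken by gene symbol alone, with no use of their values: every gene named Mmp, Adam, Adamts or Adamtsl with a number, and Timp1 to Timp4. The rule found 84 genes of 20606 in the deposited table, made up of 33 Adam, 19 Adamts, 5 Adamtsl, 23 Mmp and 4 Timp genes.

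The study sequenced polyA RNA of purified lung fibroblast subgroups in bulk and asked how the subgroups contribute to metastasis in the lung. There were 4 groups of 3 libraries: matrix fibroblasts (MF) and MyoF, the abbreviation for myofibroblasts, each from normal mice (N-MF and N-MyoF) and from mice with lung metastasis (M-MF and M-MyoF). The series title places the work in breast cancer. The sources used here give no strain, age, tumour line, time of sampling or sorting scheme, and label no genetic change in any group. Nothing says that the 3 libraries of a group came from separate mice, so every p-value below measures only how far such libraries vary, possibly for technical reasons.

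As background, metalloproteases of these families hold a zinc ion in the active site and are made as inactive precursors. Mmps cut collagens, gelatin, proteoglycans and other matrix proteins, Adams are mostly membrane proteins that release the outer part of other membrane proteins, and Adamts enzymes are secreted and cut proteoglycans, procollagens and von Willebrand factor. Adamts-like proteins resemble Adamts enzymes but lack the catalytic domain. Timps bind the active site and block it, and the balance between Timps and proteases is held to set matrix turnover in the lung.

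Values are FPKM, fragment counts scaled to transcript length and to the mapped total, which can be compared between genes because they are per length. The read depth is unknown. FPKM summed to 528176 to 618478 per library, 11466 to 12682 genes reached 1 FPKM, and among genes at 100 FPKM or more the median coefficient of variation within a group was 1.60% to 1.83%. All 8 myofibroblast markers were higher in N-MyoF than in N-MF, and summed to 5569 to 5630 against 522 to 533 FPKM. Matrix fibroblast markers were mixed: 5 of 8 were higher in N-MF, and Col13a1, Npnt and Itga8 were lower. Their sum of 5502 to 5698 FPKM in N-MF against 674 to 692 in N-MyoF rests mostly on Inmt and Pi16. Both sums were lower in metastatic libraries, at 1678 to 1703 FPKM in M-MF and 311 to 316 in M-MyoF for matrix fibroblast markers, and 357 to 362 and 3383 to 3422 for myofibroblast markers. Single myofibroblast markers went both ways with metastasis: 4 rose and 4 fell in MF, and 2 rose and 5 fell in MyoF. Hhip, Aspn and Mustn1, which hold most of that sum, were lower in both subgroups. Acta2 and Tagln were higher in both, Acta2 at 617 to 641 FPKM in N-MyoF and 935 to 958 in M-MyoF. General fibroblast markers summed to 21053 to 21288 FPKM in N-MF, 15306 to 15429 in M-MF, 3586 to 3642 in N-MyoF and 2072 to 2096 in M-MyoF. Single markers of this list differed: 6 of 8 fell and 2, Col3a1 and Thy1, rose in MF, and 4 fell and only Thy1 rose in MyoF. Dcn went from 10453 to 10582 FPKM in N-MF to 5911 to 6028 in M-MF. The libraries also held RNA of other cells. Airway and alveolar epithelial markers summed to 2470 to 2893 FPKM over the 6 MF libraries and 15572 to 19990 over the 6 MyoF libraries. Neutrophil markers stood at 33.4 to 38.1 FPKM in N-MF, 252 to 261 in M-MF, 141 to 154 in N-MyoF and 13274 to 13622 in M-MyoF. Mesothelial markers stood at 6.72 to 7.03, 241 to 246, 81.8 to 82.6 and 206 to 213 FPKM in the same order. The epithelial sum was above the fibroblast sum in all MyoF libraries, normal and metastatic, and the neutrophil sum was above it in the 3 M-MyoF libraries only. The epithelial sum rests mostly on Scgb1a1 and Sftpc, at 14574 to 15053 and 4002 to 4086 FPKM in N-MyoF. Epcam and Cdh1 stood at 5.69 to 6.34 and 6.86 to 7.32 FPKM there. Sums of different marker lists do not give shares of cells. In such bulk libraries, fewer cells of a type and less RNA per cell cannot be told apart.

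Of the 84 members, 52 reached 1 FPKM in at least 3 libraries and entered the tests: 13 of 33 Adam, 15 of 19 Adamts, 5 of 5 Adamtsl, 15 of 23 Mmp and 4 of 4 Timp genes. Of the other 32, 30 stayed under 1 FPKM in every library and 2, Mmp12 and Mmp28, reached it in 1 or 2 libraries, both with a highest value of 1.02 FPKM. Mmp12 is the macrophage elastase. Most of the rest were Adams known from the testis. Of 21 such germ line Adams only Adam3 and Adam5 passed the filter. Among those that passed, Adam12 reached 1 FPKM only in M-MF, Mmp25 only in M-MyoF and Mmp10 only in the metastatic groups. Adam3, Adam11, Adamts19, Mmp13 and Mmp15 reached it in all 3 libraries of the group where their mean is highest and in 1 or 2 libraries of another. Without that group they would not have passed. All of these members entered the tests through groups where they are high, so their calls and their places in the counts below are descriptions. Among the Mmps, Mmp1a, Mmp1b, Mmp7, Mmp17, Mmp20 and Mmp21 stayed under 1 FPKM, as did Adamts13, Adamts16, Adamts18 and Adamts20. Mmp1a and Mmp1b, Adam1a and Adam1b, Adam6a and Adam6b, and Adam26a and Adam26b are close copies of each other, so their low values are uncertain where reads could be shared.

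**Figure D1:**
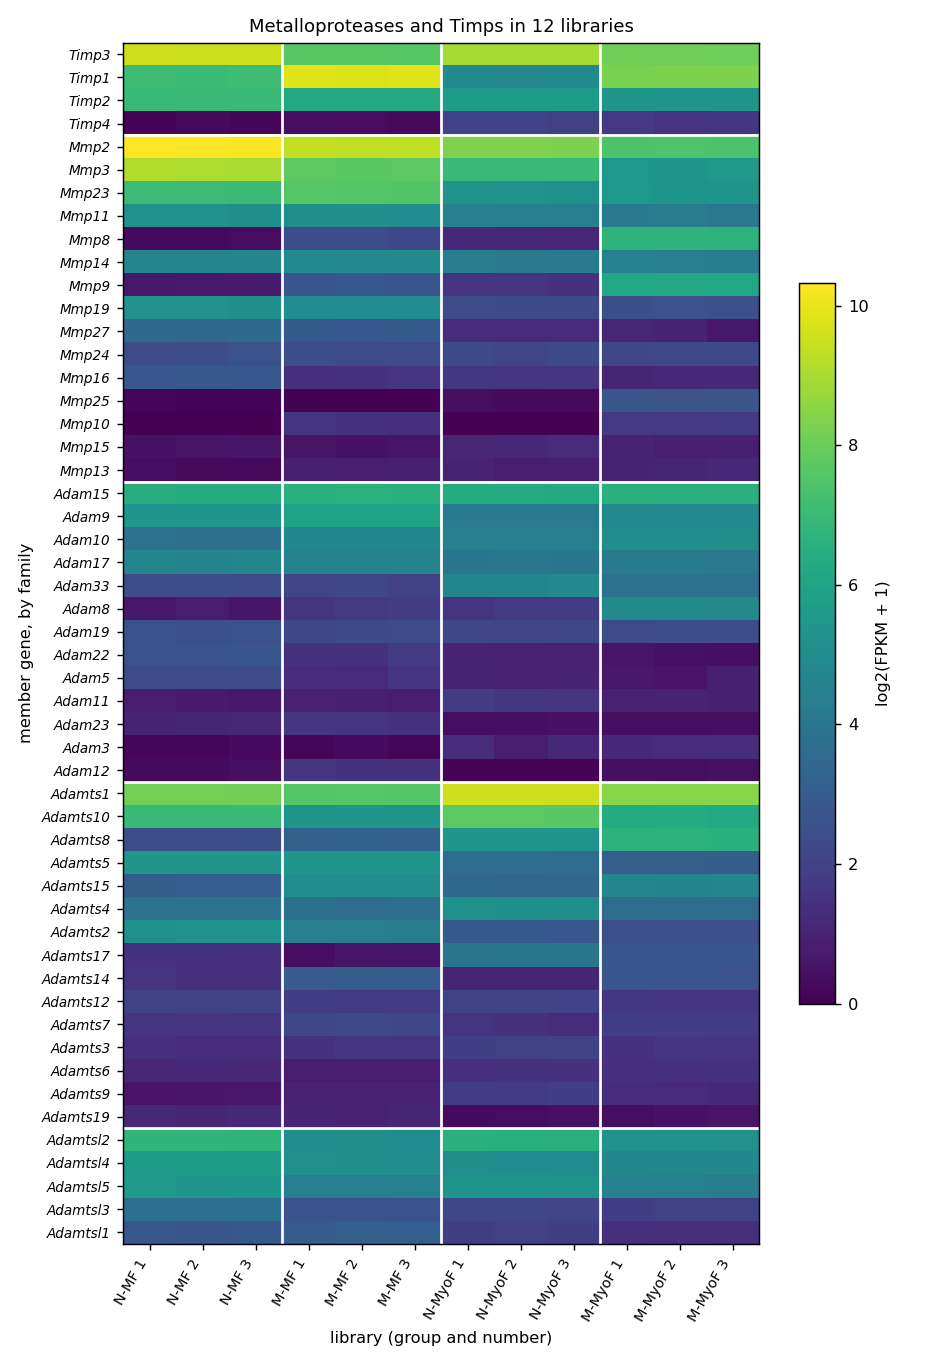
log2(FPKM + 1) of the 52 tested members (rows, grouped by family and ordered by mean level) in the 12 libraries (columns). A few genes carry most of the signal, with Mmp2, Mmp3, Timp3, Timp1, Adamts1 and Adamts10 brightest, and Timp1, Mmp8 and Mmp9 brighten from normal to metastatic libraries.

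A few abundant genes made up most of each family's RNA. Mmp2, the gelatinase that cuts denatured and basement membrane collagen (chr8:92827290-92853421, GRCm38), was the highest member in N-MF at 1276, 1282 and 1229 FPKM. Mmp3, a stromelysin with many matrix substrates, followed at 546, 529 and 521 FPKM among the Mmps of N-MF. In N-MyoF the highest member was Adamts1, a proteoglycan-cleaving enzyme (chr16:85793827-85803113), at 755, 763 and 742 FPKM. Together the 84 members summed to 3956 ± 58.0 FPKM (mean ± SD, n = 3) in N-MF, 3036 ± 30.3 in M-MF, 2541 ± 32.9 in N-MyoF and 2038 ± 24.6 in M-MyoF. The sum was thus lower in the metastatic libraries of both subgroups, and no library of a metastatic group reached the lowest normal library of its subgroup.

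Each comparison was tested over 13300 genes on log2(FPKM + 1), with 0.05 as the limit for the adjusted p. Errors of log2 fold changes are standard errors. In M-MF against N-MF, 22 of 52 members were higher, 24 were lower and 6 did not pass. Over all genes tested, 78.1% passed in this comparison, 46.3% as higher and 31.8% as lower. In M-MyoF against N-MyoF, 20 members were higher, 27 were lower and 5 did not pass, and over all genes 80.7% passed, 49.1% as higher and 31.6% as lower. With replicates this close most genes passed, and changes of at least 2-fold separate the members better. At that size 8 members were higher and 9 lower in M-MF, where all genes gave 9.32% higher and 2.54% lower. In M-MyoF 9 members were higher and 6 lower, where all genes gave 11.4% and 3.24%. The groups did not overlap for 45 members in MF and 47 in MyoF, where 79.8% and 82.2% of all genes did not. The members' median log2 fold change was -0.05 in MF and -0.20 in MyoF, against 0.08 and 0.11 over all genes tested. Other scalings of the libraries moved these counts. After quantile normalization 16 members were higher and 30 lower in M-MF, and 12 higher and 34 lower in M-MyoF, while the median of all genes moved to -0.10 and -0.11. No change of more than 0.35 on the log2 scale turned direction or ceased to pass under any of the 3 scalings in these 2 comparisons, among members with a value there.

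The Timps changed their order with metastasis. In normal libraries Timp3 was the main inhibitor RNA, and in metastatic libraries Timp1 took the first place. Timp1, a secreted inhibitor (chrX:20870166-20874737), stood at 133, 129 and 136 FPKM in N-MF and at 910, 890 and 907 FPKM in M-MF. In MyoF it stood at 28.6, 28.3 and 29.0 FPKM without and 304, 311 and 309 FPKM with metastasis. All 6 metastatic libraries lay above all 6 normal ones. The log2 fold change was 2.76 ± 0.02 in MF (adjusted p = 2.42e-17) and 3.38 ± 0.02 in MyoF (adjusted p = 5.49e-18), and the rise was larger in MyoF, with a difference, MF minus MyoF, of -0.63 ± 0.03 (adjusted p = 2.13e-09). Mesothelial markers rose in the same libraries, 6 of 6 in each subgroup, and their part in this rise was not tested.

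Timp3, the inhibitor that binds the matrix and also blocks Adam17 (chr10:86300412-86349505), went the other way. It stood at 739, 721 and 723 FPKM in N-MF and at 202, 202 and 198 FPKM in M-MF. In MyoF it stood at 491, 488 and 484 FPKM without and 274, 267 and 267 FPKM with metastasis. Timp3 fell in both subgroups, with no overlap between groups, by 1.85 ± 0.02 on the log2 scale in MF and by 0.85 ± 0.02 in MyoF. The fall was steeper in MF, with a difference of -0.998 ± 0.023 (adjusted p = 2.74e-12). As a share of the summed Timp FPKM, Timp3 went from 73.8% to 17.0% in MF and from 85.9% to 43.3% in MyoF, while Timp1 went from 13.5% to 76.5% and from 5.05% to 49.5%. Beside the fall of Timp3, 6 of 8 matrix fibroblast markers fell and 1 rose in each subgroup. Of 8 myofibroblast markers, 4 fell and 4 rose in MF, and 5 fell and 2 rose in MyoF, with the sums given above. The part of these markers' fall in that of Timp3 was not tested. The ratio of Timp1 to Timp3 went from 0.182 ± 0.00509 to 4.49 ± 0.0816 in MF and from 0.0587 ± 0.00101 to 1.14 ± 0.0285 in MyoF (mean ± SD, n = 3).

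Timp2, a broadly expressed inhibitor that also takes part in the activation of pro-Mmp2 by Mmp14 (chr11:118301061-118355411), fell with Timp3. It stood at 127, 125 and 126 FPKM in N-MF and 75.7, 74.3 and 76.2 in M-MF, a fall by 0.73 ± 0.02 on the log2 scale. The fall in MyoF, from 48.3 ± 0.417 to 42.4 ± 1.03 FPKM, was by 0.18 ± 0.02. Timp4 was a minor member, at 0.06 to 0.32 FPKM in all MF libraries and 2.93 to 3.19 FPKM in N-MyoF, where it fell to 2.05 to 2.27 in M-MyoF (-0.37 ± 0.06). Its values in N-MF and M-MF overlapped, and the call there (0.16 ± 0.06, adjusted p = 0.0301) was lost without replicate 1 or 3 of N-MF or replicate 1 or 2 of M-MF, with adjusted p of 0.0532 to 0.132. The summed Timp FPKM went from 986 ± 12.3 to 1179 ± 11.4 in MF and from 568 ± 3.32 to 622 ± 1.58 in MyoF. In MF it was also higher with metastasis at equal library sums (1050 ± 12.7 to 1162 ± 12.1), but in MyoF it turned, from 594 ± 1.29 to 569.7 ± 0.698 at equal sums and from 539 ± 2.54 to 528 ± 1.03 after median-ratio scaling.

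**Figure D2:**
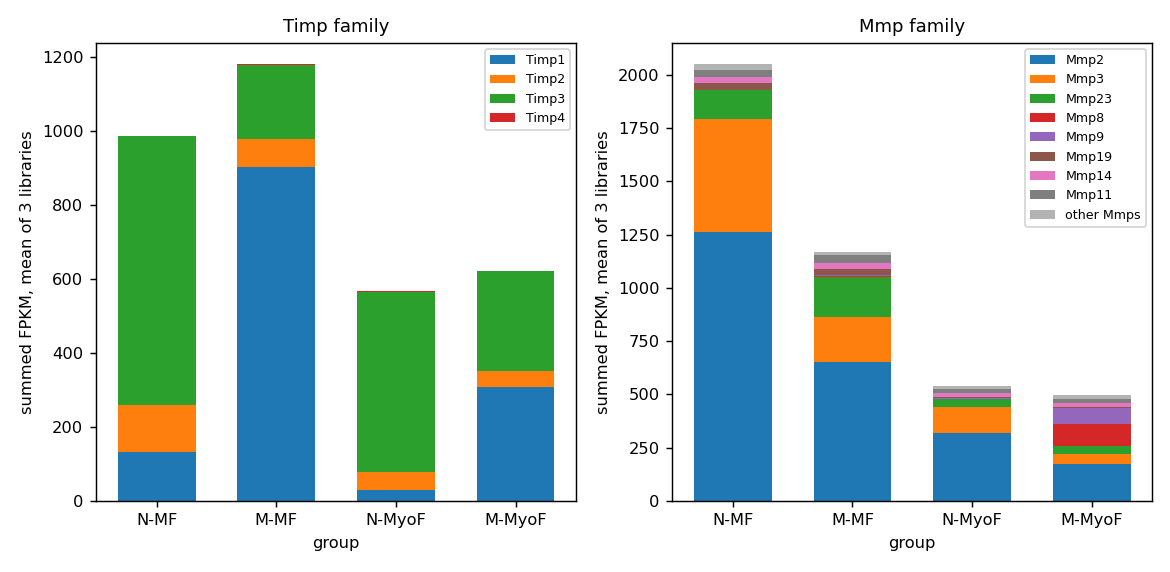
Summed FPKM of the Timp family (left) and the Mmp family (right) in the 4 groups, as means of 3 libraries, with each gene as a segment. Timp3 makes up 73.8% of the Timp sum in N-MF and Timp1 76.5% in M-MF, while the Mmp sum goes from 2050 to 1170 FPKM in MF and Mmp8 and Mmp9 appear in the M-MyoF bar.

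The 2 most abundant Mmps fell in both subgroups. Mmp2 stood at 661, 651 and 644 FPKM in M-MF, a fall by 0.95 ± 0.02 on the log2 scale from N-MF (adjusted p = 8e-13). In MyoF it went from 318, 325 and 310 FPKM to 173, 177 and 169 FPKM, a fall by 0.87 ± 0.02. Mmp3 stood at 216, 207 and 208 FPKM in M-MF, a fall by 1.33 ± 0.03, and went from 126, 125 and 122 to 44.3, 43.2 and 45.6 FPKM in MyoF, a fall by 1.47 ± 0.03. For both genes each metastatic library lay below every normal library of its subgroup. The matrix fibroblast and myofibroblast marker sums were lower in the same libraries, though single markers such as Acta2 and Tagln were higher. The part of these markers in the falls of Mmp2 and Mmp3 was not tested. The summed Mmp FPKM went from 2050 ± 44.4 to 1170 ± 21.6 in MF and from 538 ± 10.7 to 496 ± 8.43 in MyoF. The ratio of the Timp sum to the Mmp sum went from 0.481 ± 0.0108 to 1.01 ± 0.0169 in MF and from 1.06 ± 0.0156 to 1.25 ± 0.0189 in MyoF.

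Other Mmps went different ways. Mmp23, a short membrane-linked Mmp, stood at 135, 135 and 131 FPKM in N-MF and 193, 189 and 180 FPKM in M-MF (0.48 ± 0.04). It made up 6.52% of the Mmp sum in N-MF and 16.0% in M-MF. In MyoF it was 36.6 ± 1.69 and 41.5 ± 2.16 FPKM (0.18 ± 0.04), a call that turned to -0.01 after scaling to equal sums and -0.11 after quantile normalization. Mmp14, the membrane-bound activator of pro-Mmp2, stood at 24.8 to 25.1 FPKM in N-MF and 27.8 to 28.5 in M-MF, and at 18.1 to 19.1 and 19.4 to 22.3 FPKM in MyoF. Its changes of 0.16 ± 0.04 and 0.14 ± 0.04 passed as deposited and turned to -0.05 and -0.11 after quantile normalization. Mmp11, stromelysin 3, was 36.5 ± 1.92 FPKM in N-MF and 33.6 ± 1.5 in M-MF, with overlapping values and an adjusted p of 0.0446 that rose to 0.0511 to 0.178 without replicate 1 or 2 of N-MF, 2 or 3 of M-MF, 1 or 2 of N-MyoF or 1 of M-MyoF. Mmp16, another membrane-type enzyme, fell from 6.10 ± 0.191 to 1.79 ± 0.104 FPKM in MF (-1.35 ± 0.05) and from 2.12 ± 0.0451 to 1.22 ± 0.133 in MyoF (-0.49 ± 0.05). Mmp24 stood at 3.44 to 4.87 FPKM over the 12 libraries and did not pass in either subgroup.

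Mmp19 was 34.3 to 36.3 FPKM in N-MF and 30.6 to 31.6 in M-MF, and 3.81 to 4.30 FPKM in N-MyoF and 4.54 to 4.93 in M-MyoF. The values did not overlap in either subgroup, the log2 fold changes were -0.18 ± 0.04 and 0.20 ± 0.04, and that in MyoF no longer passed under any of the 3 scalings. Exons of Mmp19 and of Tmem198b on the other strand share 789 bases in the GENCODE M21 annotation. Tmem198b reached 21.8 FPKM, and no source used here states that strand was counted, so reads of the pair cannot be told apart. Smaller exon overlaps with genes on the other strand were found for Adam17 with Iah1 (311 bases) and Timp4 with Syn2 (90 bases). Iah1 reached 34.8 FPKM, above every value of Adam17, and Syn2 reached 1.6 FPKM. Reads of these shared stretches cannot be told apart either.

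Mmp8, the neutrophil collagenase, and Mmp9, the gelatinase stored in neutrophil granules, rose most of all members in MyoF. Mmp8 (chr9:7558429-7568486) stood at 1.31, 1.25 and 1.16 FPKM in N-MyoF and at 102, 105 and 101 FPKM in M-MyoF, a log2 fold change of 5.54 ± 0.05 (adjusted p = 2.28e-16). Mmp9 (chr2:164940326-164955850) stood at 1.92, 1.93 and 1.77 FPKM in N-MyoF and at 72.5, 75.1 and 70.5 FPKM in M-MyoF (4.68 ± 0.04). Both were under 2 FPKM in all 6 normal libraries, and in M-MyoF they made up 20.7% and 14.7% of the Mmp sum. In MF the same genes rose to lower levels: Mmp8 from 0.20, 0.20 and 0.26 FPKM to 4.47, 4.47 and 3.74 FPKM (2.10 ± 0.05), and Mmp9 from 0.59, 0.61 and 0.70 to 5.78, 6.13 and 5.65 FPKM (2.07 ± 0.04).

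A pair of membrane proteases moved with them in MyoF. Adam8, a leukocyte Adam (chr7:139978932-139995207), went from 2.00, 2.34 and 2.48 FPKM in N-MyoF to 29.6, 29.9 and 28.1 FPKM in M-MyoF (3.21 ± 0.07), and from 0.54 to 0.72 FPKM in N-MF to 2.05 to 2.71 in M-MF (1.05 ± 0.07). Mmp25, a membrane-type Mmp known from leukocytes (chr17:23628315-23645269), went from 0.20 to 0.30 FPKM in N-MyoF to 5.17 to 5.73 in M-MyoF (2.39 ± 0.05), and stayed at 0.03 to 0.13 FPKM in all 6 MF libraries. Since it passed the filter only through M-MyoF, its values describe that group and its call adds nothing to them. For all 4 genes the log2 fold change was smaller in MF than in MyoF. The difference, MF minus MyoF, was -3.44 ± 0.08 for Mmp8, -2.61 ± 0.06 for Mmp9, -2.46 ± 0.07 for Mmp25 and -2.16 ± 0.11 for Adam8. All 4 genes stood under 1 FPKM in N-MF, where adding 1 to FPKM shrinks changes most. The sizes of these differences therefore depend on that scale. Beside these rises, 11 of 11 neutrophil markers rose in M-MyoF and 9 of 11 in M-MF, with the summed levels given above, and none of the 11 was at 0 in any group. Single markers differed in MF. Csf3r, the receptor of the granulocyte growth factor, stood at 3.56 to 3.63 FPKM in N-MyoF and 24.3 to 25.8 in M-MyoF. In MF its values overlapped, at 1.16 to 1.43 FPKM in N-MF and 0.84 to 1.34 in M-MF. S100a8 stood at 10.9 to 14.3 FPKM in N-MF and 118 to 125 in M-MF, and Ngp at 0.36 to 0.71 and 25.4 to 29.0. The part of neutrophil RNA in the rises of Mmp8, Mmp9, Mmp25 and Adam8 was not tested.

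**Figure D3:**
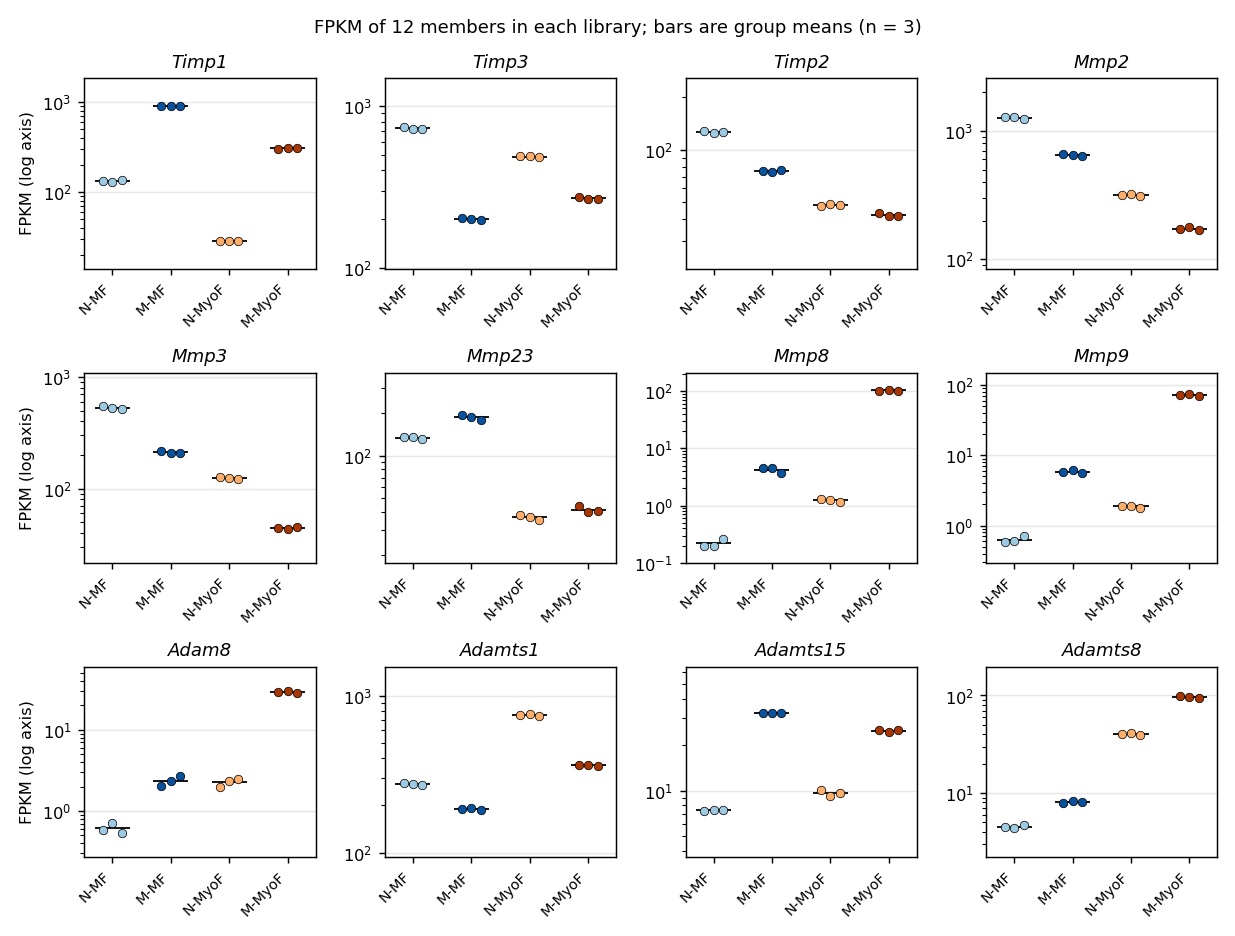
FPKM (log axis) of 12 members in every library, by group, with points for the libraries and bars for group means (n = 3). Timp1 rises and Timp3 falls in both subgroups, Mmp2 and Mmp3 fall in both, and Mmp8, Mmp9 and Adam8 are highest in the 3 M-MyoF libraries.

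Of 10 Mmp genes that lie together on chromosome 9 between positions 7272514 and 7699585, a span of 427.1 kb, 5 passed the filter. These neighbours did not move together. Mmp3 and Mmp27 fell in both subgroups, Mmp8 and Mmp10 were higher in both metastatic groups, Mmp13 was higher in both as deposited but turned in MyoF after quantile normalization, and Mmp1a, Mmp1b, Mmp7, Mmp12 and Mmp20 did not pass the filter. Mmp10, stromelysin 2, was listed at 0 in all 6 normal libraries and at 1.99, 1.78 and 1.65 FPKM in M-MF and 2.28, 2.25 and 2.34 FPKM in M-MyoF. Mmp13, the main collagenase of rodents, stayed low, at 0.19 to 0.30 FPKM in N-MF and 0.80 to 0.87 in M-MF (0.58 ± 0.06). In MyoF Mmp13 was 0.78 to 1.02 FPKM without and 1.05 to 1.24 with metastasis (0.18 ± 0.06, adjusted p = 0.016), a call lost without replicate 2 or 3 of N-MyoF or 3 of M-MyoF (adjusted p of 0.0584 to 0.0724) and turned to -0.02 after quantile normalization. Mmp27 went from 10.7 ± 0.361 to 6.52 ± 0.274 FPKM in MF (-0.64 ± 0.09) and from 1.40 ± 0.0493 to 0.933 ± 0.291 in MyoF (-0.33 ± 0.09).

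The sequences before the start sites of Mmp3, Mmp10 and Mmp13 are shown because these neighbours carry the same pair of motif matches. Letters of the AP-1 motif are followed by letters of the TATA box motif, at distances from the start that differ between the genes. Mmp3 fell and Mmp10 and Mmp13 did not fall with metastasis. Each line gives the 250 bases before the RefSeq start on GRCm38.p6, plus strand, at chr9:7445572-7445821 for Mmp3, chr9:7502092-7502341 for Mmp10 and chr9:7272264-7272513 for Mmp13. The first run of capitals in each line marks letters that match the AP-1 motif TGANTCA. The second run of capitals, nearer the start, marks the TATA box motif TATAAA.
Mmp3: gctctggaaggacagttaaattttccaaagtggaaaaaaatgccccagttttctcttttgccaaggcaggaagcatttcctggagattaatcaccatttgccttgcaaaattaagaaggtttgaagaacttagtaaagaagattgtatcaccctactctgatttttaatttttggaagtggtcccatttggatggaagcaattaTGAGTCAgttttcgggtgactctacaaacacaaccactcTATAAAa
Mmp10: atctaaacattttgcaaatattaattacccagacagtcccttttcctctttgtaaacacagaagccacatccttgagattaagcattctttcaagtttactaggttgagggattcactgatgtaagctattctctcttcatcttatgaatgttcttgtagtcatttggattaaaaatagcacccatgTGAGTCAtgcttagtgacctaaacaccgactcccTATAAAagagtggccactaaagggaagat
Mmp13: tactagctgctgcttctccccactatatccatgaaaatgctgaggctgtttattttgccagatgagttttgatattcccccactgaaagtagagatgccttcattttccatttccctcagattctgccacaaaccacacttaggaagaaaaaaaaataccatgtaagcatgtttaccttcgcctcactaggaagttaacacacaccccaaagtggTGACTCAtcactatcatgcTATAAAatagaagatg
Counted from the first transcribed base as 0, the AP-1 letters begin at -46 in Mmp3, -63 in Mmp10 and -35 in Mmp13, and the TATA letters at -7, -29 and -16. In windows from 250 bases before to 50 after the start, searched on both strands, TGANTCA was found in 4 of 36 promoters of tested members, in 5.52% of 13505 promoters of all genes tested and in 7.81% of all 32851 promoters in the RefSeq table. TATAAA was found in 6 of 36, 7.64% and 13.6% of the same sets. The table held promoters for 33 of the 52 tested members. A match is a description of the letters and no evidence of a bound factor.

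Among the Adams, the broadly expressed sheddases were abundant and changed by less than 1 on the log2 scale. Adam10, the sheddase of Notch and cadherins (chr9:70678944-70780229), stood at 13.5, 13.1 and 13.2 FPKM in N-MF and at 27.1, 27.2 and 26.9 FPKM in M-MF (0.98 ± 0.03). In MyoF it went from 21.5, 21.3 and 20.4 to 32.8, 32.5 and 32.9 FPKM (0.61 ± 0.03). Adam9 (chr8:24949611-25017040) stood at 40.2, 41.9 and 42.1 FPKM in N-MF and 61.3, 61.6 and 60.7 FPKM in M-MF (0.55 ± 0.03), and went from 17.9, 18.1 and 18.7 to 29.1, 29.4 and 28.5 FPKM in MyoF (0.64 ± 0.03). Both genes rose in both subgroups with no overlap. Adam17, the sheddase of tumour necrosis factor (chr12:21323509-21373632), did not follow: it stood at 24.3 to 25.6 FPKM in N-MF and 22.6 to 22.7 in M-MF (-0.14 ± 0.04), and at 15.1 to 15.5 and 16.6 to 18.6 FPKM in MyoF (0.20 ± 0.04, turned to -0.05 after quantile normalization). Adam15, the highest Adam in every group, held 78.5 to 95.3 FPKM over the 12 libraries. Its changes of 0.16 ± 0.03 in MF and 0.15 ± 0.03 in MyoF turned to -0.08 and -0.16 after quantile normalization.

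Other Adams were more mixed. Adam12, a membrane Adam of activated mesenchymal cells, went from 0.22 to 0.34 FPKM in N-MF to 1.76 to 2.00 in M-MF (1.18 ± 0.05), and stood at 0.06 FPKM in each N-MyoF library and 0.32 to 0.37 in M-MyoF (0.35 ± 0.05). It passed the filter only through M-MF, the group where it is high. Adam33, an Adam of airway mesenchyme and the highest Adam of N-MyoF after Adam15, fell from 26.4 ± 1.11 to 13.6 ± 0.255 FPKM in MyoF (-0.91 ± 0.05) and from 4.33 ± 0.186 to 3.45 ± 0.31 in MF (-0.26 ± 0.05). Adam22, which has no active protease site, fell from 5.37 ± 0.367 to 1.97 ± 0.312 FPKM in MF (-1.11 ± 0.07) and from 0.937 ± 0.0306 to 0.403 ± 0.0586 in MyoF (-0.47 ± 0.07). Adam19 was 3.43 to 4.96 FPKM over the 12 libraries, with log2 fold changes of -0.26 ± 0.04 in MF and 0.21 ± 0.04 in MyoF, and the latter no longer passed under any of the 3 scalings. Of the 13 tested Adams, 7 rose and 5 fell in M-MF, and 7 rose and 4 fell in M-MyoF, where 46.3% and 49.1% of all genes rose. These counts turned with scaling: after quantile normalization 5 were higher and 6 lower in M-MF, and 3 higher and 6 lower in M-MyoF.

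The Adamts enzymes held more RNA in MyoF than in MF, and their sum fell in both: from 514 ± 5.15 to 365 ± 4.03 FPKM in MF and from 1092 ± 15.9 to 608 ± 8.92 FPKM in MyoF. Adamts1 carried much of it. It stood at 279, 275 and 269 FPKM in N-MF and 188, 192 and 187 FPKM in M-MF (-0.53 ± 0.02), and at 361, 363 and 355 FPKM in M-MyoF, a fall by 1.07 ± 0.02 from N-MyoF. Adamts10, an enzyme tied to fibrillin microfibrils (chr17:33523646-33553782), stood at 123, 125 and 122 FPKM in N-MF and 42.2, 41.8 and 41.1 FPKM in M-MF (-1.54 ± 0.02). In MyoF it went from 210, 210 and 203 to 81.8, 83.0 and 78.9 FPKM (-1.34 ± 0.02). The groups of both genes did not overlap in either subgroup. The matrix fibroblast and myofibroblast marker sums were lower in the same metastatic libraries, though Acta2 and Tagln were higher. The part of these markers was not tested.

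Not every proteoglycan-cleaving Adamts fell. Adamts15 stood at 7.32, 7.47 and 7.48 FPKM in N-MF and 32.5, 32.4 and 32.4 FPKM in M-MF (1.99 ± 0.03), and went from 10.1, 9.28 and 9.72 to 25.2, 24.1 and 25.1 FPKM in MyoF (1.27 ± 0.03). Its neighbour Adamts8, which lies within the same 64.7 kb of chromosome 9, stood at 4.5, 4.41 and 4.65 FPKM in N-MF and 7.93, 8.31 and 8.05 FPKM in M-MF (0.72 ± 0.03). In MyoF Adamts8 went from 40.2, 41.0 and 39.3 to 98.2, 97.6 and 93.5 FPKM (1.24 ± 0.03). Both rose in both subgroups with no overlap. Another pair of neighbours, Adamts1 and Adamts5 within 107.3 kb of chromosome 16, parted only in MF as deposited. Adamts5, the aggrecanase best known from cartilage, was 41.3 to 41.8 FPKM in N-MF and 41.3 to 42.5 in M-MF. It did not pass there (adjusted p = 0.683), while Adamts1 fell. In MyoF both genes fell, Adamts5 from 11.5 ± 0.273 to 7.58 ± 0.2 FPKM (-0.54 ± 0.03) with no overlap. Under the 3 scalings Adamts5 passed as lower in MF, at -0.10 to -0.22.

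Adamts4, another aggrecanase (chr1:171250129-171262267), fell from 34.8, 34.7 and 33.9 to 11.6, 11.7 and 11.6 FPKM in MyoF (-1.49 ± 0.03) and from 13.4, 13.5 and 14.0 to 12.9, 11.7 and 12.2 FPKM in MF (-0.14 ± 0.03). The difference between these effects was 1.35 ± 0.05 (adjusted p = 1e-10), the largest positive one among the members. Adamts17, linked to fibrillin like Adamts10, fell from 15.0 ± 0.269 to 5.71 ± 0.252 FPKM in MyoF (-1.25 ± 0.06) and from 1.77 ± 0.0666 to 0.453 ± 0.115 in MF (-0.93 ± 0.06). Which of these 2 falls is the larger turned with a pseudocount of 0.1. Adamts9 was 0.47 to 0.59 FPKM in N-MF and 0.91 to 0.95 in M-MF, and 2.35 to 2.62 FPKM in N-MyoF and 1.27 to 1.52 in M-MyoF. The difference of its effects was 0.87 ± 0.08.

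The 3 procollagen-processing members, which trim the amino end of fibrillar collagens, went apart. Adamts2, the highest of them in all groups but M-MyoF, fell from 36.0 ± 0.253 to 19.9 ± 0.75 FPKM in MF (-0.83 ± 0.04) and from 6.43 ± 0.407 to 4.71 ± 0.07 in MyoF (-0.38 ± 0.04). Adamts14 rose in both, from 1.91, 1.68 and 1.60 to 6.84, 7.23 and 7.02 FPKM in MF (1.56 ± 0.05) and from 1.07, 1.10 and 1.09 to 5.66, 5.31 and 5.17 FPKM in MyoF (1.61 ± 0.05). Adamts3 stayed at 1.53 to 3.04 FPKM in all groups, with log2 fold changes of 0.24 ± 0.05 in MF and -0.39 ± 0.05 in MyoF.

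The Adamts-like genes fell almost together. Of 5 members, 4 fell in M-MF and 5 in M-MyoF, with median log2 fold changes of -1.05 and -0.56, and these counts were the same under all 3 scalings. Over all genes 31.8% and 31.6% were called lower. The general fibroblast marker sums were lower in the same libraries, though single markers such as Thy1 were higher. The part of these markers in the falls was not tested. Adamtsl2, a microfibril-binding protein that holds TGF-beta activity down (chr2:27079336-27108981), stood at 107, 106 and 104 FPKM in N-MF and 32.5, 33.3 and 31.7 FPKM in M-MF (-1.67 ± 0.03). In MyoF it went from 92.8, 90.1 and 88.7 to 38.8, 38.4 and 36.1 FPKM (-1.24 ± 0.03). Adamtsl5 fell from 43.9 ± 1.39 to 20.7 ± 0.422 FPKM in MF (-1.05 ± 0.03) and from 38.7 ± 0.8 to 20.9 ± 0.939 in MyoF (-0.86 ± 0.03). Adamtsl3 and Adamtsl4 fell by 1.13 ± 0.04 and 0.56 ± 0.04 in MF and by 0.22 ± 0.04 and 0.22 ± 0.04 in MyoF. Adamtsl1 was the exception, higher in M-MF (5.97 ± 0.188 to 7.44 ± 0.373 FPKM, 0.28 ± 0.05) and lower in M-MyoF (2.89 ± 0.17 to 1.64 ± 0.0436 FPKM, -0.56 ± 0.05).

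**Figure D4:**
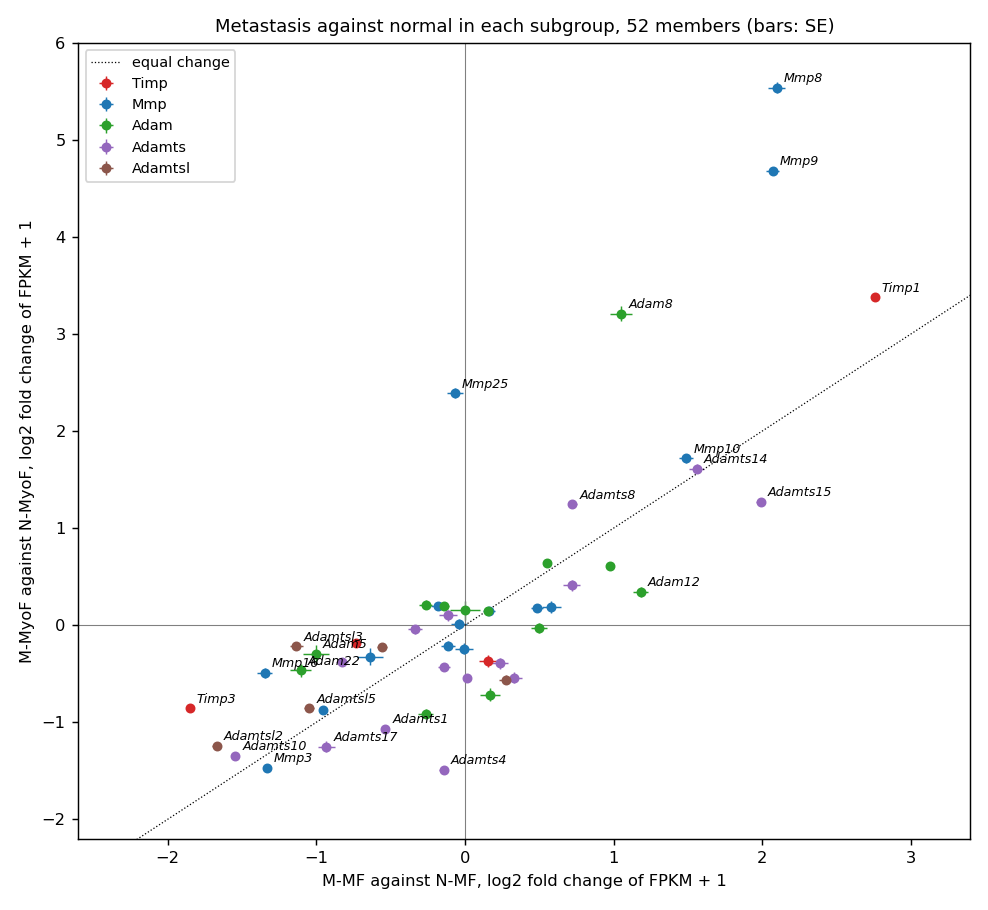
log2 fold change of FPKM + 1 with metastasis in MF (x axis) and MyoF (y axis) for the 52 tested members, coloured by family, with standard errors as bars; names are given for changes of at least 2-fold in either subgroup and the dotted line marks equal change. Timp1 and Adamts15 lie high in both, Timp3, Mmp3, Adamts10 and Adamtsl2 lie low in both, and Mmp8, Mmp9, Adam8 and Mmp25 lie far above the line.

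Across both subgroups, 44 members passed in both comparisons, 16 as higher in both, 20 as lower in both and 8 in opposite directions. The shared direction in 81.8% of these members stands beside 87.1% of the 8837 genes that passed in both. The opposite ones were Adam11, Adamts3, Adamts9, Adamtsl1 and Timp4, higher in M-MF and lower in M-MyoF, and Adam17, Adam19 and Mmp19, lower in M-MF and higher in M-MyoF. Each of these 8 changed by less than 1 on the log2 scale in both subgroups, and only Adamtsl1 passed in the same directions in both subgroups under all 3 scalings. The call of Adam11 in MF (0.17 ± 0.07) was lost without replicate 2 or 3 of N-MF or 1 or 2 of M-MF, with adjusted p of 0.0707 to 0.127. The difference between the effects passed for 46 of 52 members, 20 as larger and 26 as smaller in MF, where 64.4% of all genes passed, 26.4% and 38.0% by direction. At 2-fold or more, 1 was larger in MF, Adamts4, and 4 were smaller, Mmp8, Mmp9, Mmp25 and Adam8, where all genes gave 3.83% and 3.27%.

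The subgroups differed from each other in normal lung. In N-MF against N-MyoF, 28 members were higher in MF, 21 were lower and 3 did not pass, with 14 and 8 at least 2-fold apart. Over all genes 82.0% passed, 24.5% as higher and 57.6% as lower in MF, and 4.88% and 11.9% at 2-fold. The groups did not overlap for 50 members and 82.4% of all genes. Mmp19 (2.86 ± 0.04), Adamts2 (2.32 ± 0.04), Mmp27 (2.28 ± 0.09), Timp1 (2.17 ± 0.02), Mmp3 (2.09 ± 0.03) and Mmp2 (1.99 ± 0.02) were higher in N-MF. Adamts8 (-2.90 ± 0.03), Adamts17 (-2.53 ± 0.06), Adam33 (-2.36 ± 0.05), Timp4 (-1.86 ± 0.06) and Adamts1 (-1.45 ± 0.02) were lower in N-MF, that is, higher in N-MyoF. By family, 9 of 15 Mmps were higher and 5 lower in N-MF, and all 5 Adamtsl genes were higher. Of 15 Adamts genes 4 were higher and 10 lower, close to the shares over all genes, and median-ratio scaling gave 6 and 9 and quantile normalization 6 and 8.

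In metastatic lung, 28 members were higher in M-MF than in M-MyoF, 20 were lower and 4 did not pass, where 85.1% of all genes passed, 19.1% as higher and 66.0% as lower. At 2-fold 13 were higher and 9 lower, against 4.74% and 8.82% of all genes, and the groups did not overlap for 46 members and 85.6% of all genes. Quantile normalization gave 34 higher and 13 lower, and moved the median over all genes from -0.29 to -0.02. Mmp19 (2.48 ± 0.04), Adamts5 (2.32 ± 0.03), Mmp3 (2.22 ± 0.03) and Mmp23 (2.15 ± 0.04) were highest in M-MF relative to M-MyoF. Mmp8 (-4.32 ± 0.05), Mmp9 (-3.43 ± 0.04), Adamts8 (-3.42 ± 0.03) and Adam8 (-3.17 ± 0.07) were at the other end. Adamts4, at -1.28 ± 0.03 in normal lung, was 0.07 ± 0.03 in metastatic lung and did not pass there (adjusted p = 0.0684). Beside these contrasts stand the epithelial markers, at 15572 to 16120 FPKM in M-MyoF and 2860 to 2893 in M-MF, and the neutrophil markers given above. Their part in the differences between subgroups was not tested.

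**Figure D5:**
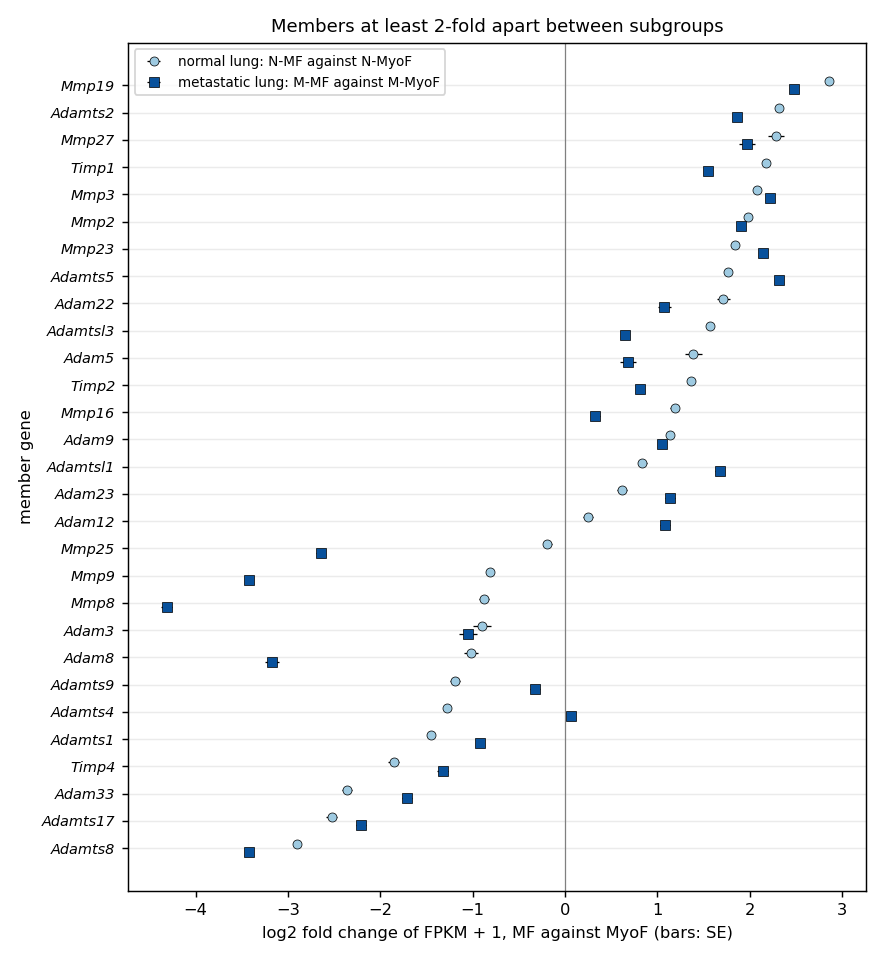
log2 fold change of FPKM + 1 between MF and MyoF in normal lung (circles) and metastatic lung (squares), with standard errors as bars, for the 29 members at least 2-fold apart in either. Positive values are higher in MF; Mmp19, Mmp3 and Mmp2 stay near or above 2 in both, Adamts8 stays below -2, and Mmp8, Mmp9, Mmp25 and Adam8 move to the left in metastatic lung.

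Genes that activate or restrain these proteases went different ways. Of 15 tested genes for activation and inhibition, 10 rose and 3 fell in M-MF, and 5 rose and 7 fell in M-MyoF, with medians of 0.55 and -0.09. Over all genes 46.3% rose and 31.8% fell in MF, and 49.1% and 31.6% in MyoF, which is the background for the lists that follow as well. Reck, the membrane inhibitor of several Mmps, fell from 35.8 to 8.73 FPKM in MF (-1.92 ± 0.03) and from 42.9 to 24.9 in MyoF (-0.76 ± 0.03), as Timp3 did. The urokinase gene Plau, whose product starts the plasmin cascade that can activate Mmps, rose from 33.8 to 94.6 FPKM in MF (1.46 ± 0.02) and from 8.70 to 19.5 in MyoF (1.08 ± 0.02). Serpine2, a serpin that blocks plasminogen activators, rose from 47.2 to 364 FPKM in MF (2.92 ± 0.02) and from 459 to 718 in MyoF (0.64 ± 0.02). Among 8 tested partners of Adam10 and Adam17, 3 rose and 3 fell in MF and 6 rose and 1 fell in MyoF, which quantile normalization moved to 1 and 4 and to 2 and 3. Rhbdf2, the carrier that brings Adam17 to the cell surface, rose in both (0.94 ± 0.04 and 0.82 ± 0.04), and its relative Rhbdf1 fell in both (-0.61 ± 0.04 and -0.35 ± 0.04).

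Substrates were mixed. Of 17 tested membrane proteins that Adams are known to shed, 11 rose and 5 fell in M-MF, and 11 rose and 2 fell in M-MyoF, where 78.1% and 80.7% of all genes passed in either direction. Quantile normalization gave 10 and 7 in M-MF and 9 and 7 in M-MyoF. The tumour necrosis factor receptor Tnfrsf1b rose in both (1.23 ± 0.03 and 1.30 ± 0.03), as did the syndecan Sdc1 (1.73 ± 0.04 and 1.31 ± 0.04), while the adhesion molecule Icam1 fell from 388 to 159 FPKM in MF (-1.28 ± 0.02) and from 954 to 228 in MyoF (-2.06 ± 0.02). Of 12 tested Adamts substrates and cofactors, 4 rose and 6 fell in M-MF, and 3 rose and 7 fell in M-MyoF. Fbln1, the fibulin that acts as a cofactor of Adamts1, fell from 1159 to 354 FPKM in MF (-1.71 ± 0.02) and from 224 to 83.3 in MyoF (-1.42 ± 0.02). Acan, the aggrecan cleaved by Adamts4 and Adamts5, fell from 3.91 to 0.207 FPKM in MyoF (-2.03 ± 0.04). It is itself on the list of cartilage markers, whose sum went from 334 to 339 FPKM in N-MyoF to 64.8 to 65.5 in M-MyoF. In N-MyoF that sum rests mostly on Chad, at 208 to 214 FPKM there and 14.8 to 15.1 in M-MyoF. Sox9 changed less, at 50.5 to 53.8 and 41.9 to 42.7 FPKM. The part of cartilage RNA in the fall of Adamts4 was not tested. Of 12 other secreted metalloproteases and their enhancers, 4 rose and 7 fell in M-MF, and 5 rose and 6 fell in M-MyoF. Bmp1, the procollagen C-proteinase, rose in both (0.52 ± 0.03 and 0.44 ± 0.03), while its enhancer Pcolce2 fell from 515 to 189 FPKM in MF (-1.44 ± 0.02) and from 291 to 131 in MyoF (-1.14 ± 0.02).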

How the data were processed

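RNA of 12 libraries was extracted with Trizol, turned into cDNA by a SMART-seq2 type method and built into libraries with a transposase, per the labels' protocols. The genome build was GRCm38, per the submitters' processing notes; no aligner, counting tool or annotation is given in the sources used here. Values are FPKM that the authors deposited with 2 decimals, so the depth is unknown and no counts could be recovered. Columns of no listed sample numbered 0.

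Groups were taken from sample titles. limma 3.58.1 in R 4.3.3 was fitted to log2(FPKM + 1), a scale that understates changes of low genes, with a mean-variance trend, for the 13300 genes that reached 1 FPKM in 3 or more libraries. A single model of 4 group means over all 12 libraries gave 5 comparisons, with Benjamini-Hochberg adjustment over all genes tested. Tables used pandas 2.3.3 and numpy 2.4.6 under Python 3.11.15, and matplotlib 3.10.9 drew the figures. Positions and promoters are from RefSeq (GRCm38.p6) and exon overlaps from GENCODE M21.

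Library numbers were checked for pairing over 1830 genes at 50 FPKM or more: deviations from group means correlated at 0.482 to 0.796 for the 18 same-number pairs and at -0.683 to 0.38 for the 36 others, so a fit with the number as a block was run as an alternative. Other alternatives were pseudocounts of 0.1 and 5, no filter or one of 5 FPKM, 3 scalings, fits on the compared groups only, and libraries left out. The fit was tested on simulated data, with 12557 genes and changes placed in the M-MF against N-MF comparison: 16% of changes of 0.1 on the log2 scale, 82% of 0.25, 98% of 0.5 and 98% of 1 were recovered, and 4.55% of 154 calls were unchanged genes. The simulated libraries varied independently and few genes were changed, unlike the real libraries, so these rates need not hold for the calls above.

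The members and lists were chosen with earlier results of these data known. Members are named when a group mean reached 5 FPKM, when they are Timps, or when they are up to 4 with the largest passing changes per comparison and direction; up to 4 genes of each companion list were named by smallest p. Members given outside that rule, such as Mmp10, Mmp13, Mmp24 and Adamts3, and the cell type markers named singly, such as Csf3r, were chosen after their values were seen.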

Additional observations from a re-analysis of the deposited data

Results flagged for a closer look

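For 8 members the metastasis effects in MF and MyoF differed by a test of the difference itself (MF minus MyoF, log2 scale, limma with adjustment over all genes). They are the up to 4 largest in each direction, and such a difference was common, since 64.4% of all genes passed. Larger in MF were Adamts4 at 1.35, Adam11 at 0.88, Adamts9 at 0.87 and Adam12 at 0.84. Adamts4 fell in MyoF from 34.5 ± 0.513 to 11.6 ± 0.0757 FPKM and in MF from 13.6 ± 0.276 to 12.3 ± 0.58. Adam11 went from 2.24 ± 0.32 to 0.97 ± 0.0819 FPKM in MyoF. Adam12 went from a mean of 0.263 to 1.86 FPKM in MF and from 0.06 to 0.347 in MyoF. Adding 1 to FPKM shrinks changes most at the lowest levels, so the size of its difference depends on that scale. Smaller in MF were Mmp8 at -3.44, Mmp9 at -2.61, Mmp25 at -2.46 and Adam8 at -2.16. These sizes depend on that scale as well. Adam12 and Mmp25 passed the filter only through M-MF and M-MyoF, where each is high. Adam11 would not have passed without N-MyoF, where it is highest. The differences of these members are therefore descriptions. Mmp8, Mmp9 and Adam8 moved with the neutrophil markers in both subgroups, and Mmp25 did so in MyoF only. The part of those cells was not tested. Groups of 3 libraries are too small for a check of single outlying libraries.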

How the results depend on the processing

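Counts of members moved by over 1.5 times under these settings, and in all other settings tried they stayed within it. With a pseudocount of 5, which shrinks low genes, 2 members were higher and 4 lower by 2-fold in MF, 5 were lower by 2-fold in N-MF against N-MyoF and 7 higher by 2-fold in M-MF against M-MyoF; with 0.1, 14 were lower by 2-fold in N-MF against N-MyoF and 6 differences of effects were higher by 2-fold. The filter of 5 FPKM, which left 35 members, gave 13 higher in MF, 10 higher differences of effects, and 12 lower in each comparison of subgroups. In MyoF, equal sums and median-ratio scaling each gave 13 higher and 10 lower by 2-fold, and quantile normalization 12 and 10. Equal sums gave 4 differences higher by 2-fold, and quantile normalization 13 lower in M-MF against M-MyoF.

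Scaling moved the median of all genes in N-MF against N-MyoF from -0.21 to 0.03 (median-ratio) and in M-MF against M-MyoF from -0.29 to -0.01. The share of called members that were higher went in MF from 47.8% to 34.8% (quantile), in MyoF from 42.6% to 27.7% (equal sums), 31.7% (median-ratio) and 26.1% (quantile), and in M-MF against M-MyoF from 58.3% to 68.8% (median-ratio) and 72.3% (quantile). Directions turned as follows, on the log2 scale. In MF Adamts5, which had not passed, turned to -0.10, -0.12 and -0.22 (equal sums, median-ratio, quantile), and by quantile Adam11 to -0.067, Adam15 to -0.081, Mmp14 to -0.052 and Timp4 to -0.039. In MyoF equal sums turned Adam15 to -0.041, Mmp14 to -0.039 and Mmp23 to -0.01; median-ratio turned Adam15 to -0.012 and Mmp14 to -0.009; quantile turned Adam15 to -0.16, Adam17 to -0.051, Mmp13 to -0.02, Mmp14 to -0.11 and Mmp23 to -0.11. For the difference of effects a pseudocount of 0.1 turned Adamts17 to -0.40, and quantile turned Mmp10 to 0.11 and Mmp2 to 0.001. In N-MF against N-MyoF Adamts12 turned to 0.14 (median-ratio) and 0.25 (quantile) and Adamts6 to 0.036 (quantile). In M-MF against M-MyoF median-ratio turned Adam10 to 0.048, Adam19 to 0.15 and Adamtsl2 to 0.11, and quantile turned Adam19 to 0.25, Mmp10 to 0.13 and Mmp13 to 0.15. The causes were not tested.

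With the replicate block Adamts12 in N-MF against N-MyoF no longer passed (-0.09, adjusted p = 0.0659), Adam15 there passed (0.051, adjusted p = 0.0324) and Mmp11 passed for the difference of effects (0.095, adjusted p = 0.042); no other call of a member changed. Leaving out each library in turn gave 19 to 22 higher, 23 to 24 lower, 6 to 8 higher by 2-fold and 8 to 9 lower by 2-fold in MF, and 18 to 21, 27, 8 to 9 and 6 in MyoF. Calls lost without 1 library were those of Adam11, Mmp11 and Timp4 in MF, Mmp13 in MyoF, Adam15 and Adam19 in M-MF against M-MyoF, Adamts12 in N-MF against N-MyoF, and Adam9, Adamts19, Mmp2, Mmp15 and Mmp27 for the difference of effects. Unknown depth limits members near 1 FPKM.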
